A study of Mus musculus with 12 samples.

Results

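The 8 genes Sox10, Erbb3, Ngfr, S100b, Mbp, Pmp22, Gap43 and Stmn2, which are used as markers of Schwann cells and nerve fibres, were followed in RNA sequencing of the mouse molar root-forming region. They were chosen by symbol, and 8 of 8 were found among the 25899 genes of the table. First mandibular molars were cut across at postnatal day 4 and the apical piece was kept, from C57BL/6 mice labelled Nfic-/- (here null) and from littermates labelled Nfic+/- (here heterozygous). Each genotype had 6 libraries, numbered 5 to 10 in both. By their label the controls carried the mutant allele too, and no wild-type germ was compared. How the Nfic allele was made is not given in the sources used here. Nfic encodes a nuclear factor I transcription factor that molar roots need in order to form.

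Peripheral nerves enter the tooth germ from the trigeminal ganglion, whose nerve cell bodies lie outside the tooth, and Schwann cells of neural crest origin accompany the fibres. Schwann cell fate and survival depend on the transcription factor Sox10 and on neuregulin signalling through the receptor pair Erbb2 and Erbb3, and myelinating cells then make Pmp22 and Mbp. Several of these genes are also active outside nerve, Sox10 in melanocytes, Ngfr in dental mesenchyme and Pmp22 in many connective tissue and epithelial cells. In whole tissue, fewer cells of a type and less RNA per cell cannot be told apart.

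Promoter sequences are shown for S100b, Ngfr and Pmp22, the members with an entry in the reference table, so that the Schwann, receptor and myelin genes whose levels are compared later can be seen side by side; for Pmp22 the first and last of 4 listed starts are given. They come from RefSeq on GRCm38.p6, run 5′ to 3′ on the gene's strand in windows of 300 bases that include a start near their end; 3 of the 8 genes were matched. Capitals mark the Sox core words (ACAAAG or its variant TCAAAG, and ACAATG or its variant TCAATG), the GC box GGGCGG and the TATA box TATAAA, searched on both strands.
S100b, chr10:76253586-76253885, plus strand: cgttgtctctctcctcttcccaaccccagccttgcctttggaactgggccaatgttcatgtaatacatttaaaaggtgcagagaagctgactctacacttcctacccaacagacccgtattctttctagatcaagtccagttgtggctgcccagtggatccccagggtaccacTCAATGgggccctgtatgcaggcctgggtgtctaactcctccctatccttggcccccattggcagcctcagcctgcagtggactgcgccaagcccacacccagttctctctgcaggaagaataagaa
Ngfr, chr11:95587649-95587948, minus strand: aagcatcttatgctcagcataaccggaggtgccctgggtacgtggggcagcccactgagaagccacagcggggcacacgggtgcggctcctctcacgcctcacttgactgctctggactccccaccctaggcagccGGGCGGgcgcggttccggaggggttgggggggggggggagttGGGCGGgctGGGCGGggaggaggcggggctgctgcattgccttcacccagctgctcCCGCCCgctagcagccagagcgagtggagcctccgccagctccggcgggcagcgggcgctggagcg
Pmp22, first start, chr11:63128732-63129031, plus strand: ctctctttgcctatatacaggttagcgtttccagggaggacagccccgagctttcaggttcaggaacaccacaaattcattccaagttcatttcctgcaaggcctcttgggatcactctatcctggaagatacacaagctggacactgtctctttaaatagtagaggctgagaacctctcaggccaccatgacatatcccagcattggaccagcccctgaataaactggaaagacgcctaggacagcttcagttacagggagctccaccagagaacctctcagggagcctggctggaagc
Pmp22, last start, chr11:63132553-63132852, plus strand: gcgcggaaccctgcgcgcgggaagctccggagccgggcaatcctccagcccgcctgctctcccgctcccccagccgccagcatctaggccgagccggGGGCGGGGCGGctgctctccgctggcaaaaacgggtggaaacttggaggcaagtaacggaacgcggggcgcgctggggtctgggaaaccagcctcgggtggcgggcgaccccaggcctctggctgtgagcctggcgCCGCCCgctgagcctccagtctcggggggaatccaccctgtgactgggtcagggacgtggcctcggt
S100b held 1 Sox core word, and the printed windows of Ngfr and Pmp22 held none, while 44% of the 32851 promoters in the table did. Ngfr held 4 GC boxes and the last Pmp22 start 3, of which a pair shares a base, against a share of 35.7% of all promoters with at least 1. No TATAAA word was found in these windows, and 13.6% of all promoters have one. The first Pmp22 window had 3 CpG dinucleotides and the last had 30. The deposited value of Pmp22 is 1 number for the whole gene, so the use of its starts was not analysed here.

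The libraries corresponded to 70.2 to 96.4 M reads, read from the floor that genes without reads carry, and 11014 to 12518 genes reached 1 RPKM (reads per kilobase per M mapped reads). Nfic itself had 11.3, 15.9 and 24.5 RPKM as lowest, median and highest heterozygous value, and 7.90, 11.5 and 16.5 RPKM among null germs. The groups overlapped, and the difference in log2(RPKM + 1) was -0.52 (exact 2-sided permutation p = 0.0303, limma adjusted p = 0.934). The null mean was 67.8% of the heterozygous mean. The value covers the whole gene and the sources used here do not give which part of it was altered, so the RNA level does not settle the genotype labels. The 4 libraries numbered 8 and 9 carried intestinal transcripts, with 107 to 140 RPKM summed over 8 marker genes where the other 8 libraries had at most 0.117. Null replicate 6 had the lowest level of 8 dental mesenchyme markers, 4.01 in mean log2(RPKM + 1) against 4.83 to 5.98 in the others.

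Egr2, the transcription factor of myelination, was low and several neuronal markers were close to 0. Over the 12 libraries Egr2 ran from 0.00615 to 0.144 RPKM. The neurofilament gene Nefl ran from 0.00295 to 0.468 RPKM, the RNA-binding protein gene Elavl4 from 0.0140 to 0.163 and the synaptic gene Snap25 from 0.00154 to 0.0646. Of 29 neuron and axon genes found, 9 stayed under 0.1 RPKM in every library. Tubb3 (57.0 to 115 RPKM) and Uchl1 (7.76 to 17.9 RPKM), which are used as neuronal markers, were high in the same libraries. Apart from Tubb3, Uchl1, Dct, Kit, Lum, Dcn, Col11a1 and Sox9 the genes named here were picked after their values were seen. For the other cell types that share markers with Schwann cells, the melanocyte genes Dct and Kit reached 5.02 and 9.07 RPKM while Tyr reached at most 0.00427 RPKM, and the oligodendrocyte list summed to at most 0.0831 RPKM over 4 genes. The nerve-sheath and fibroblast list of 8 genes summed to 465 to 826 RPKM in heterozygous and 401 to 721 RPKM in null libraries. Most of that sum came from Lum (88.4 to 437 RPKM over the 12 libraries), Dcn (79.8 to 289) and Cldn1 (66.3 to 221). Foxd1 and Ebf2 of the same list reached at most 0.0928 and 0.149 RPKM. The muscle list summed to 1.68 to 5.93 and 1.89 to 28.1 RPKM (1.89 to 3.54 RPKM without null replicate 9). The cartilage list summed to 37.0 to 61.0 and 24.1 to 55.9 RPKM, mostly from Col11a1 and Sox9. Its members Matn1 and Acan reached at most 0.0157 and 0.568 RPKM. The sums of these 2 lists therefore follow a few abundant genes and do not measure nerve sheath or cartilage as such.

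**Figure D1:**
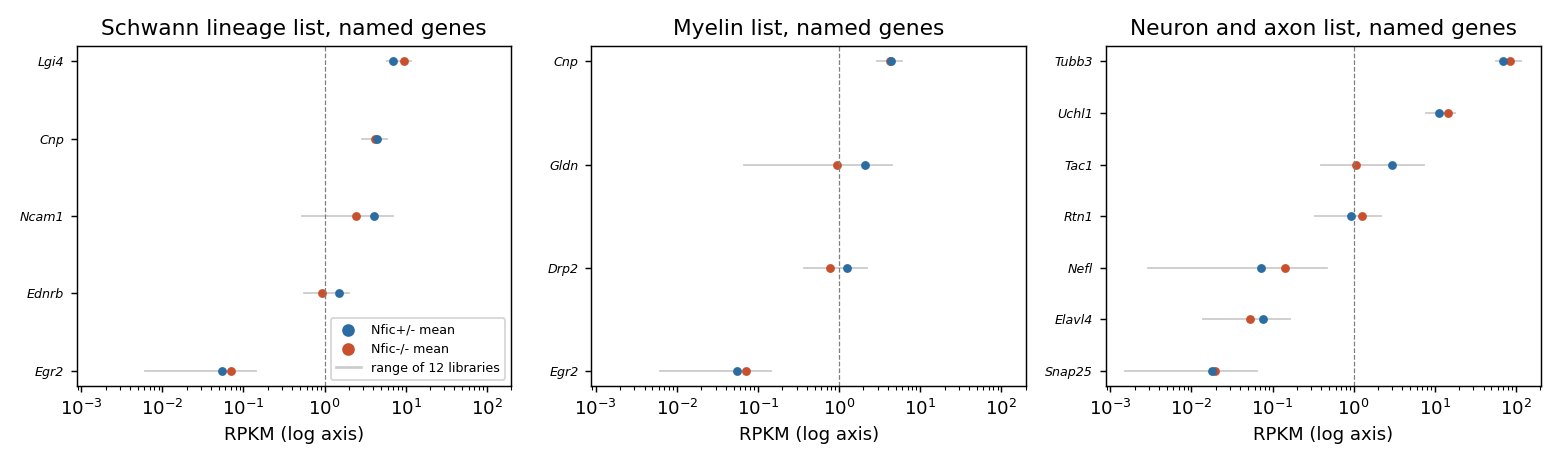
Levels of the genes of 3 nerve lists that are named in the text, in RPKM on a log axis, with the mean of 6 heterozygous libraries (blue), the mean of 6 null libraries (orange) and the range of all 12 (grey). The dashed line marks 1 RPKM, and the neuron panel shows Tubb3 and Uchl1 far above genes such as Nefl and Snap25.

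Among the 8 genes Pmp22 was the most abundant at a mean of 20.1 RPKM over all 12 libraries, and Sox10 the least at 0.271 RPKM. Stmn2 (5.52), Gap43 (4.07), Ngfr (3.52), S100b (2.36), Mbp (1.72) and Erbb3 (1.58 RPKM) lay between them. The ranges of Pmp22 and of Sox10 did not overlap with that of their neighbour in this order, whereas every other pair of neighbours overlapped, and Gap43 was above Ngfr in 4 of 12 libraries. Gap43 varied most, with 15.5 times as much RNA in the highest as in the lowest library, followed by Sox10 (9.87), S100b (8.25) and Ngfr (7.11), and by Stmn2 (3.04), Mbp (2.61), Erbb3 (2.55) and Pmp22 (2.21). Null replicate 6 held the lowest value of the first 4, and heterozygous replicate 5 the next lowest of each. These 2 libraries also had the highest summed dental epithelium markers, 139800 and 141300 RPKM, against at most 108900 RPKM in the others. They had the fewest genes at 1 RPKM, 11014 and 11175. The part of this in the spread was not tested. Without null replicate 6 the ratio was 11.2 for Gap43, 4.39 for Sox10, 4.25 for Ngfr and 2.36 for S100b, the last below Stmn2, Mbp and Erbb3.

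None of the genes separated the genotypes past the threshold. Pmp22, Ngfr, Gap43, S100b and Sox10 had lower means in the null germs, Stmn2 had a higher one, and Erbb3 and Mbp had nearly the same. The limma comparison on log2(RPKM + 1) took the 12094 genes whose mean reached 1 RPKM, 7 of the members among them. Of these 7 members 0 passed a Benjamini-Hochberg adjusted p of 0.05, and of all genes tested 0 passed (0%). At an unadjusted p under 0.05 stood 2 of 7, Pmp22 (lower) and Stmn2 (higher), against 5.34% of all genes, or 2.72% lower and 2.62% higher, and the exact permutation test marked the same 2 of 7, against 4.82%. With the filter at 0.1 RPKM, which lets Sox10 in, 0 of 8 passed the adjusted limma p and 2 of 8 had an unadjusted p under 0.05, against 5.06% of 16051 genes. This count depended on the setting. Ngfr joined under quantile normalization (9.82% of all genes), upper quartile scaling (9.05%) and the number groups as covariate (6.69%). It also joined within numbers 8 to 10 (2.21%) and without heterozygous replicate 5 (8.88%). Sox10 joined without a filter (4.41%), and Gap43 joined without null replicate 10 (10.3%). Under library weights Ngfr and Gap43 joined (18.7%), and Sox10 was not in that fit. Stmn2 dropped out within numbers 5 to 7 (4.55%). Of the 7, 2 had a mean difference above 0, against 48.9% of all genes. The 2 groups of libraries overlapped for every member, while 0.124% of all genes were higher and 0.0331% lower without overlap. The median difference of the 7 was -0.19 and that of all genes -0.003. Sox10, with a mean under 1 RPKM, did not enter that test and was compared by an exact permutation test.

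**Figure D2:**
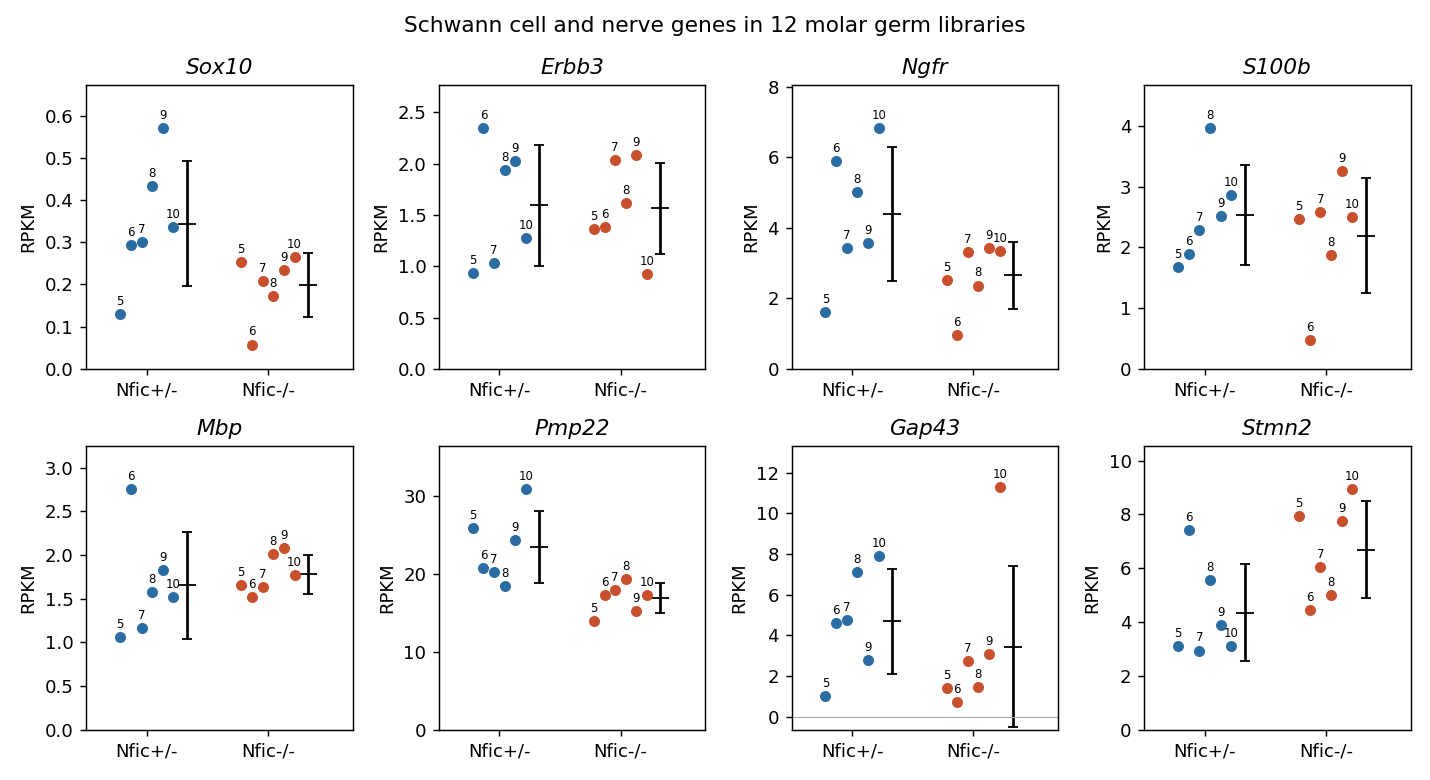
RPKM of each gene in the 6 heterozygous (blue) and 6 null (orange) libraries, with library numbers above the points and the mean with its SD in black. The null libraries of Pmp22 lie between 14.0 and 19.3 RPKM and 5 of the 6 heterozygous ones above 19.3, whereas Erbb3 covers about the same range in both genotypes.

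Sox10 (chromosome 15, 79154908 to 79165240, minus strand, GRCm38), the transcription factor that specifies Schwann cells, had 0.130, 0.318 and 0.570 RPKM as lowest, median and highest value in heterozygous germs. In null germs these were 0.0578, 0.222 and 0.266 RPKM. All 6 null libraries lay below the heterozygous median and 5 heterozygous libraries lay above the highest null one, but heterozygous replicate 5 stood among the null values. The means were 0.344 ± 0.148 and 0.199 ± 0.0766 RPKM (SD, n = 6 each), and the difference in log2(RPKM + 1) of -0.16 had an exact 2-sided permutation p = 0.0628, unadjusted. Against a pseudocount of 0.1 RPKM, which damps low values less, the difference was -0.55 (exact permutation p = 0.0844). These values rest on an estimated 12 to 168 reads per library. Without heterozygous replicate 5 the difference was -0.21 (exact permutation p = 0.00217). That library was the only heterozygous one under the highest null value. Leaving it out therefore separates the groups fully and fixes this p at the smallest the test can give. Without the 4 libraries numbered 8 and 9 the difference was -0.08 (exact permutation p = 0.4).

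Neither receptor gene passed the threshold. Erbb3 (chromosome 10, 128567523 to 128589652), the neuregulin-binding receptor of the Schwann lineage, had 0.937, 1.61 and 2.35 RPKM in heterozygous germs and 0.921, 1.50 and 2.08 RPKM in null germs. The ranges nearly coincided, and the difference of -0.002 (SE 0.160, 95% interval -0.35 to 0.34, limma adjusted p = 1) took either sign under the alternatives. Ngfr (chromosome 11, 95568818 to 95587735), the p75 neurotrophin receptor of Schwann cells and dental mesenchyme, had 1.60, 4.28 and 6.82 RPKM in heterozygous germs and 0.959, 2.92 and 3.43 RPKM in null germs. All 6 null libraries were below the heterozygous median and 4 heterozygous libraries were above every null one, yet heterozygous replicate 5 was lower than 5 of the 6 null ones. The means were 4.38 ± 1.90 and 2.66 ± 0.948 RPKM (SD, n = 6 each), a difference of -0.52 (SE 0.262, limma adjusted p = 0.945). It was -0.26 without both libraries numbered 6 and -0.35 without null replicate 6.

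S100b (chromosome 10, 76253853 to 76261159), which encodes a calcium-binding protein of Schwann cells and astrocytes, had 1.68, 2.40 and 3.96 RPKM in heterozygous germs and 0.480, 2.49 and 3.25 RPKM in null germs. The 0.480 RPKM of null replicate 6 stood apart from the other 5 null libraries, which lay within the heterozygous range. The difference was -0.19 (SE 0.228, 95% interval -0.68 to 0.30, limma adjusted p = 1), and 0.02 without that library.

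Of the myelin genes, Pmp22 had the lower mean in null germs and Mbp a slightly higher one, neither past the adjusted threshold. Mbp (chromosome 18, 82475146 to 82585637), the gene of the cytoplasmic myelin basic protein, had 1.06, 1.55 and 2.76 RPKM in heterozygous germs and 1.52, 1.72 and 2.08 RPKM in null germs. The null values lay inside the heterozygous range, and the difference was 0.09 (SE 0.132, 95% interval -0.19 to 0.38, limma adjusted p = 1). Pmp22 (chromosome 11, 63128982 to 63159547), the gene of a membrane protein of compact myelin, had 18.4, 22.6 and 30.9 RPKM in heterozygous germs and 14.0, 17.3 and 19.3 RPKM in null germs. Here 5 of 6 null libraries were below every heterozygous one, and only null replicate 8, at 19.3 RPKM, exceeded heterozygous replicate 8, at 18.4 RPKM. The means were 23.4 ± 4.58 and 16.8 ± 1.93 RPKM (SD, n = 6 each), so the null mean was 71.8% of the heterozygous mean. The log2 difference was -0.44 (SE 0.119, 95% interval -0.70 to -0.19) with an unadjusted limma p of 0.00246, an adjusted p of 0.934 and an exact permutation p = 0.00433. It was -0.42 within numbers 5 to 7 and -0.46 within numbers 8 to 10, and -0.52 without the 4 libraries numbered 8 and 9.

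The mean of Gap43 was lower and that of Stmn2 higher in null germs, neither past the adjusted threshold. Gap43 (chromosome 16, 42248442 to 42340651), which encodes a membrane protein of growing axons, had 1.01, 4.68 and 7.91 RPKM in heterozygous germs and 0.730, 2.09 and 11.3 RPKM in null germs. The highest value of all was in null replicate 10, the lowest in null replicate 6, and the groups overlapped throughout. The difference was -0.53 (SE 0.449, 95% interval -1.50 to 0.43, limma adjusted p = 1), or -0.89 without null replicate 10 and -0.33 without null replicate 6. Stmn2 (chromosome 3, 8509360 to 8561606), the gene of a microtubule regulator of growing neurites, had 2.94, 3.51 and 7.42 RPKM in heterozygous germs and 4.46, 6.91 and 8.95 RPKM in null germs. All 6 null libraries stood above the heterozygous median and 3 above every heterozygous one, while heterozygous replicates 6 and 8 reached into the null range. The means were 4.34 ± 1.80 and 6.69 ± 1.79 RPKM (SD, n = 6 each), a null mean of 154% of the heterozygous one. The log2 difference was 0.55 (SE 0.206, 95% interval 0.11 to 0.996) with an unadjusted limma p of 0.0181, an adjusted p of 0.934 and an exact permutation p = 0.0433. It was 0.45 within numbers 5 to 7 and 0.66 within numbers 8 to 10.

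The column names repeat sample-sheet numbers in a way that sets libraries 5 to 7 apart from 8 to 10, and with 3 against 3 libraries an exact permutation p cannot go below 0.1. Within these groups the differences were -0.08 and -0.24 for Sox10, -0.47 and -0.57 for Ngfr, -0.16 and -0.22 for S100b and -0.69 and -0.38 for Gap43. They were 0.03 and 0.16 for Mbp, and 0.13 and -0.13 for Erbb3, which changed sign between the groups.

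**Figure D3:**
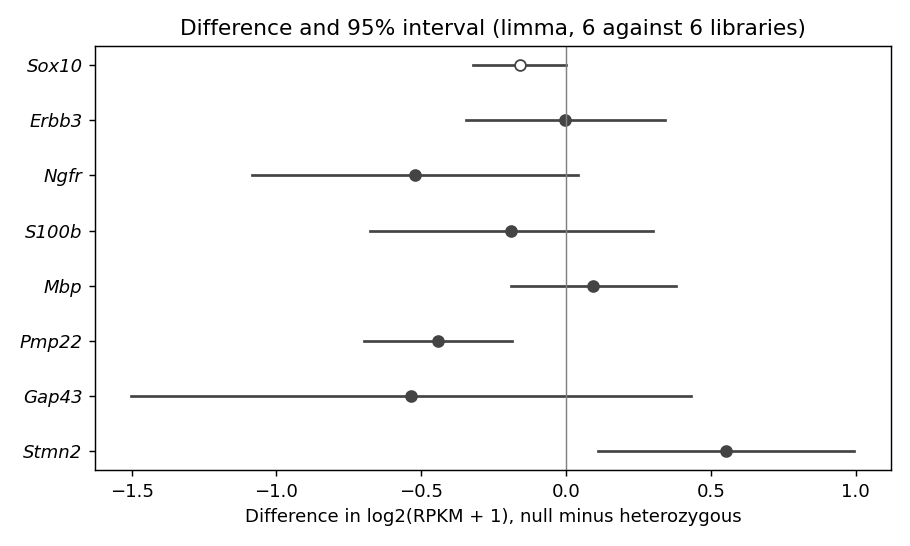
Difference between null and heterozygous germs in log2(RPKM + 1) with its 95% interval from limma over 6 against 6 libraries. The open point, Sox10, comes from the fit with a filter of 0.1 RPKM. The intervals of Pmp22 and Stmn2 lie on opposite sides of 0 before adjustment over all genes, and the other 6 include 0.

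No other gene of the Schwann lineage or myelin lists passed the adjusted threshold. Of 20 Schwann lineage genes 6 were tested, 2 higher and 4 lower in null germs, with a median difference of -0.06 beside -0.003 over all genes, and 1 of the 2 higher, Erbb2, differed by less than 0.01. With the filter at 0.1 RPKM 17 were tested, 3 higher and 14 lower, beside 54.2% of all genes lower, with a median difference of -0.09 beside -0.01 over all genes. Of these 17, 1 of the higher and 5 of the lower had an unadjusted limma p under 0.05, and the smallest adjusted p was 0.977. Of all 16051 genes at that filter 5.06% had an unadjusted p under 0.05 in either direction. Fabp7, a fatty acid binding protein gene of immature Schwann cells, named after its values were seen, averaged 0.798 ± 0.271 RPKM across heterozygous libraries, against 0.380 ± 0.251 RPKM across null ones (SD, n = 6 each; limma adjusted p = 0.977 at that filter). Dental mesenchyme markers were lower in null germs for 8 of 8 genes, none past the adjusted threshold, and their part in these counts was not tested. Among the genes above 1 RPKM Lgi4, a secreted factor of Schwann cell myelination, had the smallest p, with 6.89 ± 0.992 RPKM in heterozygous germs and 9.60 ± 1.75 RPKM in null germs (SD, n = 6 each; limma adjusted p = 0.934). Its exons share 2059 bases with the gene Fxyd3 on the other strand, so reads of the pair may not be told apart. The endothelin receptor gene Ednrb had 1.51 ± 0.417 and 0.941 ± 0.340 RPKM, and the adhesion molecule gene Ncam1 4.13 ± 1.69 and 2.44 ± 1.24 RPKM (limma adjusted p = 0.934 for both). Of 16 myelin genes found 5 were tested and 5 were lower, with a median of -0.08 and 0 past the threshold, and at 0.1 RPKM 9 of 9 were lower with 0 at an unadjusted p under 0.05, the 2 farthest being Gldn (2.08 ± 1.51 and 0.938 ± 1.29 RPKM), which encodes a nodal adhesion protein, and Drp2 (1.26 ± 0.551 and 0.764 ± 0.403 RPKM), which encodes a dystrophin-related protein. Cnp, a myelin enzyme gene on both lists, stood at 4.41 ± 0.870 and 4.21 ± 1.27 RPKM. The filter took the mean of all libraries. Ednrb, Gldn and Drp2 reached 1 RPKM through their heterozygous mean alone, so the filter favoured counting them as lower. At 0.1 RPKM the same held for Art3 and Gfap of the Schwann lineage list, named after their values were seen.

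Of the 4 neuron and axon genes above 1 RPKM 3 were higher and 1 lower in null germs, and of 12 above 0.1 RPKM 6 were higher and 6 lower, with 0 past the threshold in either fit. Rtn1 reached 1 RPKM, and Nefl 0.1 RPKM, through the null mean alone, and both count as higher. Tubb3, a neuronal tubulin, had 69.8 ± 15.1 RPKM in heterozygous germs and 85.0 ± 18.0 RPKM in null germs, the ubiquitin hydrolase gene Uchl1 11.2 ± 3.68 and 14.6 ± 2.67 RPKM, and Rtn1, a reticulon, 0.921 ± 0.217 and 1.28 ± 0.859 RPKM (SD, n = 6 each). The substance P gene Tac1 stood lower at 1.08 ± 0.810 against 2.94 ± 2.35 RPKM. Their adjusted p by limma was 0.934 for Tac1 and Uchl1, 0.965 for Tubb3 and 1 for Rtn1.

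Ligands, co-receptors and relatives of the 8 genes also gave 0 genes past the threshold, with no adjusted p by limma below 0.934. The neurotrophin-4 gene Ntf5 had 6.37 ± 1.52 RPKM in heterozygous germs and 8.38 ± 1.07 RPKM in null germs, the neurturin gene Nrtn 5.17 ± 1.19 and 4.73 ± 1.11 RPKM, and the artemin gene Artn, under the filter and not tested, 0.764 ± 0.760 and 0.878 ± 0.449 RPKM (SD, n = 6 each). Of 8 tested axon guidance ligands 3 were higher and 5 lower, with Slit3 at 9.46 ± 4.08 and 4.99 ± 2.21 RPKM, Ntn1 at 1.98 ± 0.506 and 1.33 ± 0.460 RPKM, Sema3b at 4.05 ± 1.60 and 2.87 ± 0.877 RPKM and Sema3d at 17.0 ± 3.87 and 19.1 ± 1.74 RPKM. Among 5 tested receptor partners 1 was higher and 4 lower, and Gfra2, the neurturin receptor, had 11.4 ± 7.35 and 5.37 ± 5.02 RPKM. Sort1, the sortilin that pairs with Ngfr, had 9.32 ± 1.10 and 7.75 ± 1.35 RPKM, while Egfr (1.36 ± 0.232 and 1.36 ± 0.453 RPKM) and Ntrk2 (4.75 ± 1.42 and 4.65 ± 0.877 RPKM) had close means. Of 11 tested relatives of the 8 genes, 5 were higher and 6 lower with a median of -0.01. The Pmp22 relative Emp2 stood higher at 61.1 ± 11.2 against 51.5 ± 4.35 RPKM, S100a6 higher at 44.5 ± 21.3 against 29.2 ± 11.6 RPKM, S100a1 lower at 18.8 ± 8.22 against 20.9 ± 4.60 RPKM and Marcks, which like Gap43 is a membrane-bound kinase substrate, lower at 67.3 ± 22.2 against 82.2 ± 16.0 RPKM.

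Most pairs of the 8 genes did not pass a test of correlation over the libraries. Of 28 pairs, 1 passed a permutation test of Pearson's r on log2(RPKM + 1) over 12 libraries adjusted over the 28 pairs, and 9 had an unadjusted p under 0.05. That pair was Ngfr with Gap43, with r = 0.799 (permutation p = 0.0017, adjusted 0.0476) and rho = 0.783 (permutation p = 0.00371, adjusted 0.0519). Their r was 0.691 without the 2 libraries farthest from the median of Ngfr, 0.780 for deviations from the genotype means, 0.910 within numbers 5 to 7 and 0.628 within numbers 8 to 10. By rank the pair that passed was instead Sox10 with Ngfr (rho = 0.853, permutation p = 0.00075, adjusted 0.021), with r = 0.705 (permutation p = 0.0108, adjusted 0.0607), r = 0.801 without the 2 libraries farthest in Sox10, r = 0.599 for deviations from the genotype means, and r = 0.895 and 0.418 within numbers 5 to 7 and 8 to 10. With a pseudocount of 0.1 RPKM, 9 of 28 pairs passed by r, namely all 6 pairs among Sox10, S100b, Ngfr and Gap43, Mbp with Erbb3, Mbp with Stmn2, and Pmp22 with Stmn2 in the negative direction. Null replicate 6 was lowest and heterozygous replicate 5 next lowest for each of Sox10, S100b, Ngfr and Gap43. The part of these libraries in the correlations was not tested.

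**Figure D4:**
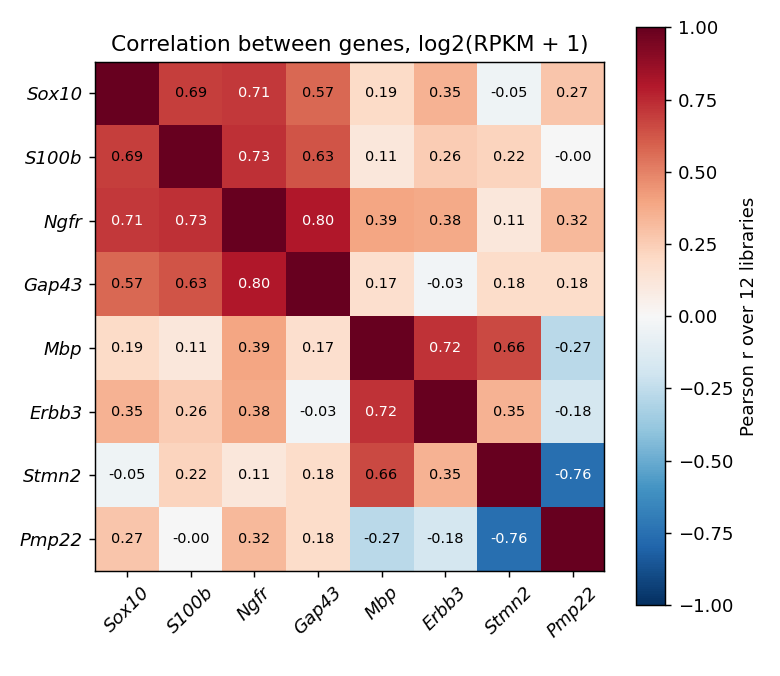
Pearson r between the 8 genes over 12 libraries on log2(RPKM + 1), with red for positive and blue for negative r. Sox10, S100b, Ngfr and Gap43 are positive with each other, with r from 0.573 to 0.799, of which 1 pair passed the adjusted threshold, and the lowest value, -0.757, is that of Pmp22 with Stmn2.

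Levels of dental mesenchyme markers went with part of the 8 genes. These relations were chosen once values were known. The list of 8 markers, Msx1, Pax9, Barx1, Twist1, Prrx1, Col1a1, Postn and Dspp, was lower in null germs for 8 of 8 genes. Pax9 reached the filter of 1 RPKM through its heterozygous mean alone (1.81 RPKM, against 0.996 RPKM in null germs). Of all tested genes 48.9% had a mean difference above 0. Of this list 0 genes passed the adjusted limma threshold. At an unadjusted limma p under 0.05 stood 7 of 8, against 2.72% of all genes lower. The list summed to 1388 to 3077 RPKM in null and 2426 to 3797 RPKM in heterozygous libraries, and none of its markers was at 0. Over the 12 libraries its mean log2 level correlated with Ngfr at r = 0.883 (permutation p = 4e-05, adjusted 0.00064 over 16 relations) and rho = 0.839 (permutation p = 0.00103, adjusted 0.00824), and r was 0.706 without the 2 farthest libraries, 0.842 within numbers 5 to 7 and 0.899 within numbers 8 to 10. For Gap43 r was 0.845 (permutation p = 0.0003, adjusted 0.0024) and rho 0.888 (permutation p = 0.00028, adjusted 0.00448), with 0.821 without the 2 farthest and 0.856 and 0.813 within the number groups. Sox10 had r = 0.715 (permutation p = 0.0100, adjusted 0.0473) and rho = 0.713 (permutation p = 0.0116, adjusted 0.0619), with 0.587 without the 2 farthest and 0.862 and 0.441 within the number groups. For S100b r = 0.736 (permutation p = 0.0120, adjusted 0.0473) rested on the 2 farthest libraries, since rho was 0.406 (permutation p = 0.192, adjusted 0.28) and r without them was 0.309, with 0.708 and 0.514 within the number groups. Over all 12 libraries Erbb3, Mbp and Stmn2 showed little relation to these markers (r = 0.0311, 0.132 and -0.0626, permutation p = 0.927, 0.676 and 0.853, adjusted 0.927, 0.772 and 0.91). Within numbers 8 to 10 r was -0.358, -0.809 and -0.265 for these 3 genes. Pmp22 had r = 0.458 (permutation p = 0.138, adjusted 0.245). For deviations from the genotype means r was 0.846 for Ngfr, 0.870 for Gap43, 0.571 for Sox10 and 0.774 for S100b. It was 0.484 for Stmn2, 0.338 for Mbp, 0.0365 for Erbb3 and 0.00807 for Pmp22. The part of these markers in the differences of Ngfr, Gap43 and Sox10 was not tested.

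The list of 8 dental epithelium markers, of which Amelx and Ambn had the highest levels, was higher in null germs for 8 of 8 genes, against 48.9% of all tested genes. At an unadjusted limma p under 0.05 stood 3 of 8, against 2.62% of all genes higher. These were Krt14, Krt17 and Krt5, named after their values were seen, and not Amelx or Ambn. Of this list 0 genes passed the adjusted limma threshold. Its mean log2 level was 8.74 to 9.18 in heterozygous and 8.92 to 9.50 in null libraries, and none of its markers was at 0. It correlated negatively with Pmp22 (r = -0.667, permutation p = 0.0177, adjusted 0.0473, and rho = -0.580, permutation p = 0.0527, adjusted 0.141), at -0.511 without the 2 farthest libraries, -0.694 and -0.672 within numbers 5 to 7 and 8 to 10, and -0.362 for deviations from the genotype means. Gap43 had r = -0.686 (permutation p = 0.0151, adjusted 0.0473) and rho = -0.692 (permutation p = 0.0155, adjusted 0.0619), at -0.675 without the 2 farthest and -0.503 and -0.737 within the number groups. The part of these markers in the differences of Pmp22 and Gap43 was not tested.

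**Figure D5:**
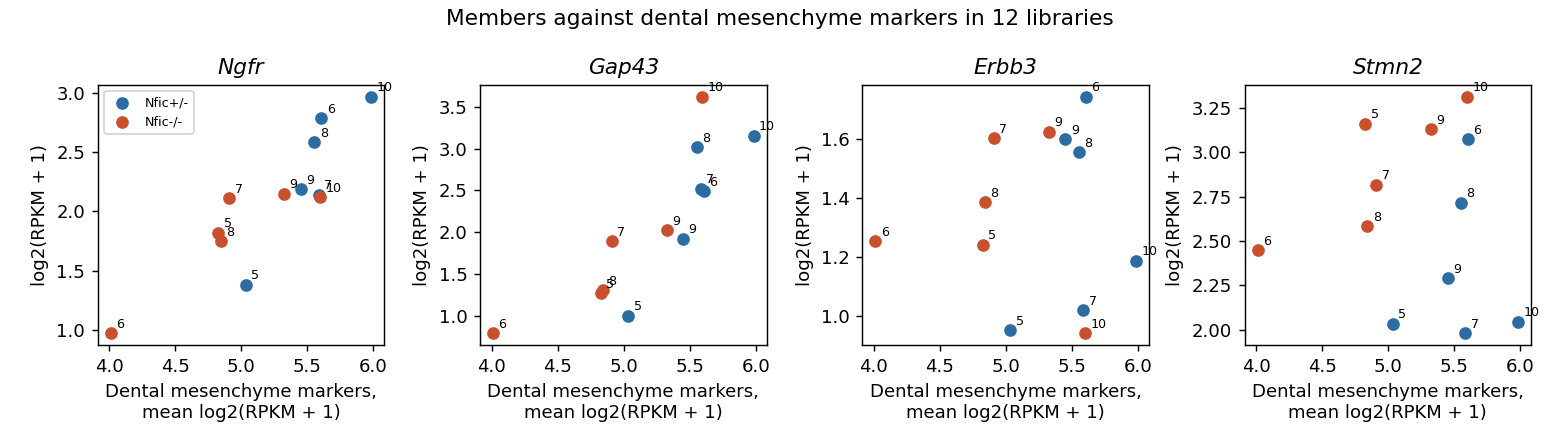
Log2(RPKM + 1) of Ngfr, Gap43, Erbb3 and Stmn2 against the mean log2(RPKM + 1) of 8 dental mesenchyme markers in 6 heterozygous (blue) and 6 null (orange) libraries with their numbers. Ngfr and Gap43 climb with the markers from null replicate 6 at the lower left, and Erbb3 and Stmn2 are scattered.

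The genes most like each of the 8 by Pearson r over the 12 libraries were taken from all 12094 tested genes, so high values are picked by design. Sox10 was most like the retinoic acid enzyme gene Aldh1a2 (r = 0.866), Vwf (0.864) and Clcn5 (0.864), and Erbb3 most like Eps8l2 (0.928), Ppap2c (0.915) and Sbno2 (0.897). Ngfr was most like Zc3h7b (0.977), Ski (0.971) and Dchs1 (0.971), and S100b most like Pcsk6 (0.959), Igfbp5 (0.922) and Myl9 (0.913). Mbp was nearest to Rnf145 (0.951), Ptk2 (0.939) and Klf5 (0.936), and Pmp22 to Rgnef (0.884), Car12 (0.881) and B4galt6 (0.857). Gap43 was nearest to Edn3 (0.980), Ghr (0.977) and Ptprt (0.977), and Stmn2 to Acot7 (0.917), the collagen IX chain gene Col9a3 (0.913) and Ppp6r2 (0.904). No gene of the fixed nerve lists was among them, but few could be. Only 6 of 20 Schwann lineage, 5 of 16 myelin and 4 of 29 neuron and axon genes were among the 12094 searched. Their absence was therefore likely in any case.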

How the data were processed

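Total RNA from the apical piece of the molar germ was sequenced in 6 libraries labelled Nfic+/- and 6 labelled Nfic-/-. Per the submitters' processing notes, alignment used TopHat2 and mm10. The sources used here name neither aligner version nor read counter nor gene models. The authors deposited log2 RPKM values, where linear RPKM had been assumed when the tests were chosen. Base 2 was read from the values, which summed over gene length to 0.773 to 0.835 of the reads, whereas base e would give 8.23 to 28.4 times their number. Genes without reads carried a floor of 0.9 reads, and all 7081 low values checked were whole reads within 0.02. Identifiers of 24987 genes were matched to GENCODE M21 (GRCm38) and 912 were not.

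RPKM was restored from the logs and put on the log2(RPKM + 1) scale, which understates changes of low genes. Genes averaging at least 1 RPKM entered limma 3.58.1 (R 4.3.3), 2-sided, with an intensity trend, genotype as the only term and Benjamini-Hochberg adjustment at 0.05 over 12094 genes. Single values and correlations used permutation tests computed with numpy 2.4.6, with ranks from scipy 1.17.1 (100000 resamples for correlations, adjusted over each family). Labels do not say whether each library is 1 animal, so p-values measure the spread between these libraries. No label names a sequencing run; the repeated sample-sheet numbers in the column names set numbers 5 to 7 apart from 8 to 10, and values within each are given where they bear on a result. No count test was run. The limma step was tested on simulated data.

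The members and the gene lists were chosen with earlier results of these data known. Genes named were the 8 members, up to 4 genes of each nerve list by smallest p (or by highest mean where fewer than 4 were tested), up to 2 of each list of other cell types by highest mean, and the 3 genes most correlated with each member; exceptions are stated, and some genes that this rule names are not reported here. Alternatives covered pseudocount, filter, scaling, variance model, library weights, replicate block, number groups and libraries left out.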

Additional observations from a re-analysis of the deposited data

Results flagged for a closer look

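Null replicate 6 stood apart from the other 5 null libraries for 2 of the 8 genes. It had 0.480 RPKM of S100b and 0.959 RPKM of Ngfr. On the log2(RPKM + 1) scale the gap to the next library was 0.627 of the range of the null group for S100b and 0.662 for Ngfr. Both exceed Dixon's 95% critical value of 0.625 for 6 samples, S100b narrowly, but in RPKM the gaps were 0.501 and 0.568 and neither did. In RPKM the gap of Gap43 in null replicate 10, 11.3 RPKM, was 0.778 of the range instead. Of 16 groups checked on the log scale 2 were marked, and chance marks about 1 in 20. The same library had the lowest dental mesenchyme marker level, 4.01; its part in these values was not tested.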

How the results depend on the processing

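No member passed the adjusted threshold under any setting tried, and over all genes 0 passed in each setting except library weights, with 17 genes, where the limma adjusted p was 0.0521 for Pmp22 and 0.0527 for Stmn2. Sox10 crossed an unadjusted permutation p of 0.05 under upper quartile scaling (-0.16, exact permutation p = 0.0498) and without heterozygous replicate 5 (-0.21). The latter crossing followed from removing the only heterozygous library under the highest null value. Erbb3 turned positive at pseudocounts of 0.1 (0.0078) and 0.5 (0.0015), under quantile normalization (0.072) and upper quartile scaling (0.011), without both libraries numbered 6 (0.10), without libraries 8 and 9 (0.033) and within numbers 5 to 7 (0.13). S100b turned positive (0.019) without null replicate 6. The cause was not tested. Leaving out 1 library gave -0.21 to -0.11 for Sox10, -0.29 to 0.019 for S100b, 0.03 to 0.20 for Mbp, -0.50 to -0.36 for Pmp22, -0.080 to 0.078 for Erbb3, -0.71 to -0.35 for Ngfr, -0.89 to -0.33 for Gap43 and 0.47 to 0.70 for Stmn2. Member pairs past the threshold numbered 9 at a pseudocount of 0.1 and 1 at 1. Without libraries 8 and 9 the number was also 1, but the pair was not Ngfr with Gap43, which had r = 0.783 (permutation, adjusted p = 0.118). Sox10 gave no value under quantile normalization, the variance models, library weights, the covariate or the filter of 1 RPKM in 6 libraries. Sox10 rests on 12 to 168 reads a library, which limits its precision.

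The design text names littermate pairs, but no label says that a number marks a litter. Same-numbered libraries deviated together with r from 0.00502 to 0.802, and 3 of 6 were closest to their own number. With the replicate block 0 genes passed by limma, with 981 at an unadjusted p under 0.05 against 646 without it, and the adjusted p was 0.458 for Pmp22, 0.605 for Stmn2 and 0.681 for Ngfr. The block with a filter of 0.1 RPKM, chosen after seeing the data, gave 0 genes.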
